A study of Mus musculus with 10 samples.

Results

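Pcdh7, Caprin1, Fnbp1, Lrrcc1, Brcc3, Zmym3, Slc44a1, Usp19, Ppil3 and Olfm1 are 10 mouse genes for which the deposited transcript tables list transcripts that begin at the same place and finish at different 3' ends. They were chosen by the measured value itself, the distal share, in the same libraries that are described here. The distal share is the FPKM (fragments counted per transcript, divided by its length in kilobases and by the size of the library) of the transcripts that reach the farthest 3' end, as a percentage of the FPKM of all transcripts that share the start. The tables hold 22552 genes, of which 596 have 2 or more 3' ends behind a shared start. Of these, 204 passed a filter on level and share (a mean of at least 5 FPKM and a mean distal share of 10% to 90%), and all 10 chosen genes were among them. The values of the 10 genes are therefore a description, and no test on them stands as evidence.

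The cells were mouse embryonic fibroblasts, connective tissue cells that attach and grow in culture. Polyadenylated RNA was sequenced from 4 groups of 2 libraries. Mock transfection was done at 37 °C and at 32 °C (mild cold), and the groups labelled siCirbp and siRbm3 were kept at 37 °C. Cirbp and Rbm3 are cold-inducible RNA-binding proteins, and the small interfering RNAs are named for them. In addition, the RNA bound by each protein was mapped by PAR-CLIP in 1 library per protein, in fibroblasts that stably expressed the Flag-tagged protein at 37 °C and were fed 100 µM 4-thiouridine for 16 h before crosslinking. PAR-CLIP crosslinks a protein to the modified uridines in RNA and sequences the bound fragments.

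The labels name a mock control and no control small interfering RNA. They do not say whether libraries 1 and 2 of a group came from separate cultures or from different small interfering RNAs, so any p-value measures only the spread between these libraries, which may be technical. The comparisons of 32 °C, siCirbp and siRbm3 all use the same 2 mock libraries at 37 °C, so their values are given side by side and their likeness is not read as a result. In whole cultures, fewer cells of a type and less RNA per cell cannot be told apart.

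A gene can make messages with different 3' ends when the cell uses different cleavage and polyadenylation signals, or splices to a different last exon. The choice sets the 3' untranslated region and, where the last exon is a coding one, the end of the protein. The cleavage machinery is built from the CPSF, CSTF and CFI complexes with a scaffold, symplekin, and the choice of end is known to vary with growth state and stress.

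Each library held about 24800000 to 27800000 mapped fragments, as computed from the tables' FPKM and coverage columns and the read length. Cirbp stood at 15.9 and 17.1 FPKM in the mock libraries at 37 °C, at 34.5 and 37.2 at 32 °C, and at 10.8 and 6.07 in the siCirbp libraries. Both siCirbp libraries lay below both mock libraries. Rbm3 stood at 1.85 and 2.21 FPKM in the mock libraries at 37 °C, at 3.64 and 3.20 at 32 °C, at 5.54 and 7.55 in the siCirbp libraries, with 3.05 and 1.16 under the siRbm3 label. Library 1 labelled siRbm3 thus lay above both mock libraries in Rbm3, against its label, and library 2 lay below them. In Cirbp, library 1 labelled siRbm3 lay below both mock libraries at 37 °C, at 13.8 FPKM, and library 2 above them, at 23.8 FPKM. Of 9 fibroblast markers, 7 had a mean of at least 1 FPKM, with vimentin (Vim) at 1337 to 3924 FPKM and Thy1 listed at 0. Their sum was 4465 to 4617 FPKM in mock at 37 °C, 3483 to 3543 FPKM at 32 °C, 2483 to 2909 FPKM in siCirbp and 3589 to 5840 FPKM under the siRbm3 label. Within that list Col1a1 was lower in cold (675 and 775 FPKM in mock, 194 and 177 FPKM at 32 °C) and Dcn higher (586 and 542 FPKM, 1096 and 1188 FPKM). Among the markers of other cell types, Ptprc, Emr1, Epcam, Cdh1, Cdh5, Kdr and Tek were at or near 0 in every library, and 1 of 5 epithelial markers, Krt19, had a mean of at least 1 FPKM. The epithelial sum was 1.41 to 1.75 FPKM in mock at 37 °C, 0.0947 to 0.202 FPKM at 32 °C, 1.35 to 1.48 FPKM in siCirbp and 2.54 to 7.68 FPKM under the siRbm3 label. The summed level of the 5 neural markers measured, carried by Sox2 and Nes, was 51.1 to 54.4 FPKM at 37 °C and 17.9 to 18.8 FPKM at 32 °C. It was 58.1 to 77.4 FPKM in siCirbp and 64.5 to 69.2 FPKM in the libraries labelled siRbm3. The macrophage and blood list, carried by Cd68 and Cd14, summed to 17.3 to 20.3 FPKM at 37 °C, 30.2 to 35.7 FPKM at 32 °C, 13.8 to 14.8 FPKM in siCirbp and 12.9 to 24.5 FPKM under the siRbm3 label. The part of these 4 lists in the results below was not tested.

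In mild cold, 8 of the 10 genes had a lower mean distal share and 2, Slc44a1 and Ppil3, a higher one. The median difference of the 10 genes was −12.6 percentage points, beside −1.93 points over all 204 genes. In the siCirbp libraries 4 were lower and 6 higher, with a median of 0.705 points beside 0.812 over the 204. In the libraries labelled siRbm3, 5 were lower and 5 higher, with a median of 0.843 points beside −0.0301. The sets of genes that stood out differed by comparison: Brcc3, Pcdh7 and Lrrcc1 held ranks 2, 3 and 5 of 204 by absolute difference at 32 °C, Pcdh7, Fnbp1 and Caprin1 ranks 3, 4 and 14 in siCirbp, and Pcdh7 and Brcc3 ranks 3 and 7 in the libraries labelled siRbm3. Ppil3 ranked 84 and Olfm1 72 at 32 °C, so the 10 genes are not the 10 largest differences.

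**Figure D1:**
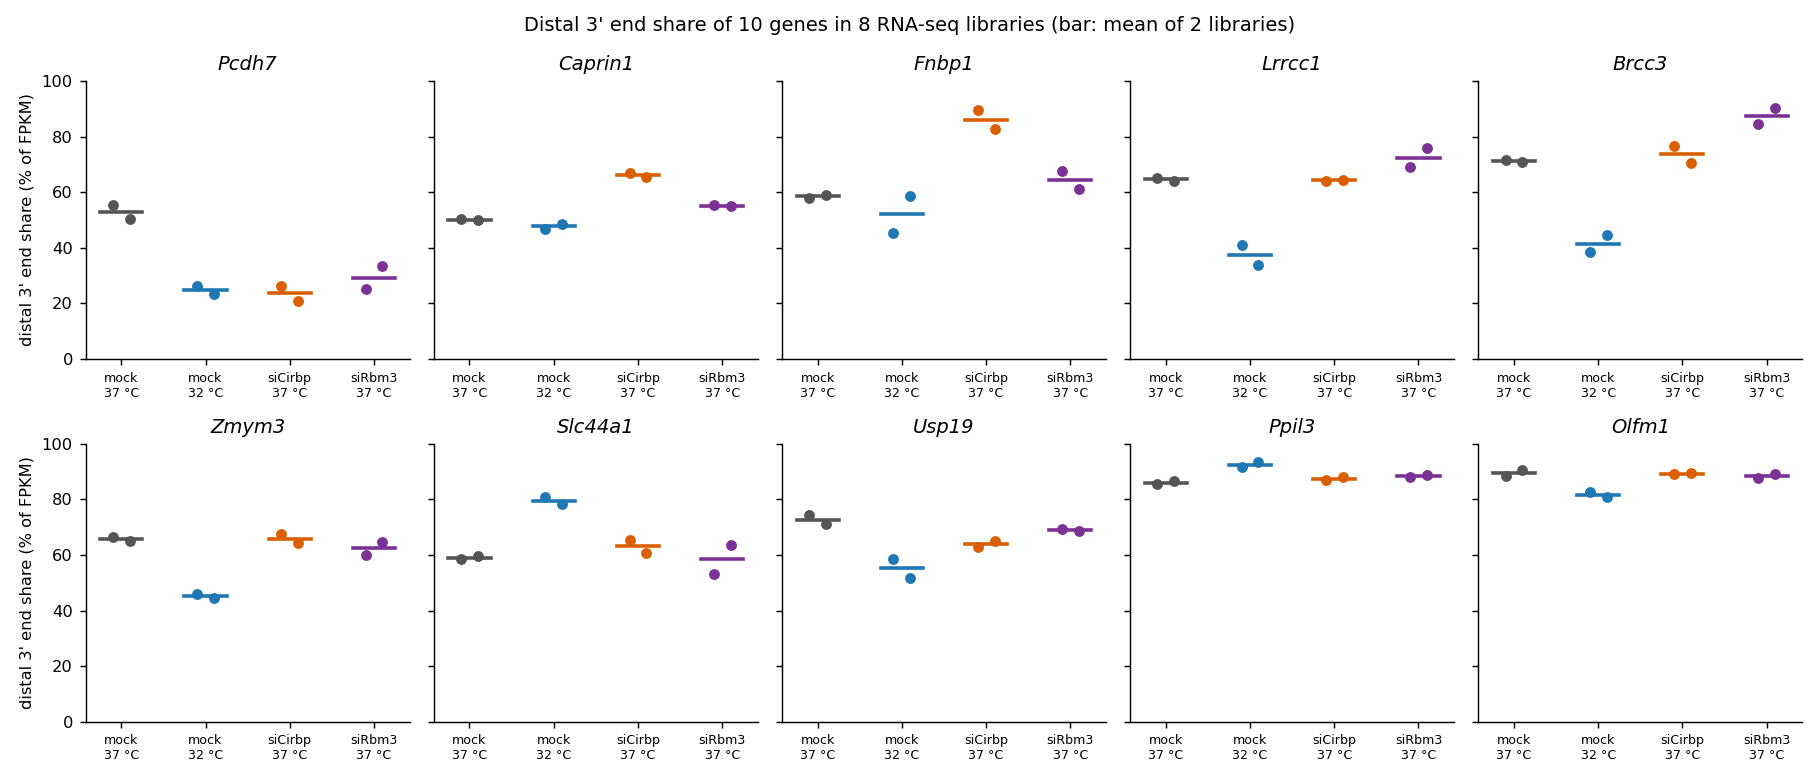
Distal 3' end share (percent of FPKM, y axis) of each of the 10 genes in the 4 groups (x axis); points are single libraries and bars the mean of 2. Pcdh7 is low in every group other than mock 37 °C, Brcc3 is low at 32 °C and high in the libraries labelled siRbm3, and Fnbp1 and Caprin1 are highest in siCirbp.

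Pcdh7 encodes a protocadherin, a cell-surface protein of the cadherin family that mediates adhesion between cells. It lies on the plus strand at chr5:58109260-58523479 (mm9, as are all positions given here). Its proximal end at 58120704 and its distal end at 58523479 are 402775 nt apart, the widest separation among the 10 genes. The 2 listed transcripts measure 5610 nt (proximal) and 7741 nt (distal).

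The distal share of Pcdh7 was 55.3% and 50.3% in the mock libraries at 37 °C, 26.2% and 23.5% at 32 °C, 26.3% and 20.9% in siCirbp, with 25.3% and 33.3% under the siRbm3 label. All 6 other libraries lay below both mock libraries at 37 °C. The group means were 52.8% ± 3.53, 24.8% ± 1.92, 23.6% ± 3.78 and 29.3% ± 5.64 (SD, n = 2), or differences of −28.0, −29.2 and −23.5 percentage points from mock. Pcdh7 was the only one of the 10 genes whose mean share lay more than 10 points from mock in all 3 comparisons, which share their mock libraries. The trait is not particular to it, since genes outside the 10 had it too. Among them were Lepre1 and, with differences in both directions, Rreb1, Rbmx and Trub1. Lepre1 stood at −31.9, −22.5 and −22.0 points, with mock libraries at 37 °C far apart, at 35.7% and 61.5%.

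Both ends contributed. Distal FPKM of Pcdh7 was 16.0 and 15.8 in mock at 37 °C, 6.84 and 6.28 at 32 °C, 9.50 and 6.81 in siCirbp, with 9.02 and 5.19 under the siRbm3 label. Proximal FPKM was 12.9 and 15.6 in mock at 37 °C, 19.3 and 20.5 at 32 °C, 26.6 and 25.7 in siCirbp, with 26.6 and 10.4 under the siRbm3 label. The distal transcript was thus lower in all 6 libraries, and the proximal one higher in 5 of them. The exception, library 2 labelled siRbm3, had a summed level of 15.6 FPKM, against 28.9 and 31.4 FPKM in mock.

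Olfm1 encodes olfactomedin 1, a secreted glycoprotein best known from the brain. The gene spans chr2:28048613-28086256 on the plus strand, with ends at 28069951 and 28086256, 16305 nt apart. Its distal share was 88.5% and 90.5% in mock at 37 °C, 82.5% and 80.7% at 32 °C, 89.0% and 89.4% in siCirbp, with 87.7% and 89.1% under the siRbm3 label. The 32 °C libraries were the lowest pair, and the other 6 spanned less than 3 points. The mean at 32 °C was 81.6% ± 1.26 against 89.5% ± 1.42 (SD, n = 2), a difference of −7.85 points. Distal FPKM of Olfm1 was 37.4 in both mock libraries and 24.8 and 26.4 at 32 °C, while proximal FPKM was 4.88 and 3.94 in mock and 5.26 and 6.29 at 32 °C. Nearly all of it came from the start at 28061209. With estimated fragments in place of FPKM the difference at 32 °C was −3.64 points, because the distal transcript (2727 nt) is longer than the proximal one (1048 nt).

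Slc44a1 encodes a choline transporter-like membrane protein. It lies on the plus strand at chr4:53453285-53635350, with ends at 53563036 and 53635350, 72314 nt apart. The distal share of Slc44a1 was 58.5% and 59.6% in mock at 37 °C, 80.8% and 78.3% at 32 °C, 65.5% and 60.7% in siCirbp, with 53.2% and 63.5% under the siRbm3 label. The 32 °C libraries stood above all others, the siCirbp libraries slightly above mock, and the last pair fell on both sides of it. The means were 59.1% ± 0.727 at 37 °C and 79.5% ± 1.81 at 32 °C (SD, n = 2), a difference of 20.5 points.

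In Slc44a1 the distal transcript barely differed in cold. Its FPKM was 16.99 and 16.5 in mock at 37 °C and 16.3 and 16.8 at 32 °C, values that overlap. The proximal transcript stood at 12.03 and 11.2 FPKM at 37 °C and at 3.88 and 4.67 FPKM at 32 °C, a ratio of means of 0.367. The higher distal share of Slc44a1 in cold was therefore a lower proximal level.

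Fnbp1 encodes formin-binding protein 1, an F-BAR protein that bends membranes during endocytosis and binds actin regulators. The gene spans chr2:30881726-30997528 on the minus strand, with its distal end at 30881726 and its proximal end at 30908755, 27029 nt apart. Fnbp1 had a distal share of 58.1% and 58.9% in mock at 37 °C, 45.4% and 58.7% at 32 °C, 89.4% and 82.7% in siCirbp, with 67.8% and 61.3% under the siRbm3 label. The siCirbp libraries were the highest by a wide margin, and the 32 °C libraries overlapped mock. The means were 58.5% ± 0.540 in mock and 86.1% ± 4.76 in siCirbp (SD, n = 2), a difference of 27.6 points.

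The distal transcripts of Fnbp1 stood at 7.97 and 7.51 FPKM in mock and at 6.56 and 6.17 FPKM in siCirbp. The proximal transcript stood at 5.75 and 5.25 FPKM in mock and at 0.776 and 1.29 FPKM in siCirbp, so its mean was 5.32 times higher in mock. The proximal value of 0.776 FPKM corresponds to about 40.7 estimated fragments, the fewest behind any end of the 10 genes. With fragments in place of FPKM the difference was 16.6 points. A further Fnbp1 transcript from another start, which reaches only the distal end, is left out of these shares. With it, the differences were 23.7 points in siCirbp and 2.19 points at 32 °C, the latter with its sign turned from −6.42. At 32 °C both ends of Fnbp1 were lower than in mock, at 2.61 and 4.47 FPKM (distal) and 3.15 and 3.14 FPKM (proximal).

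**Figure D2:**
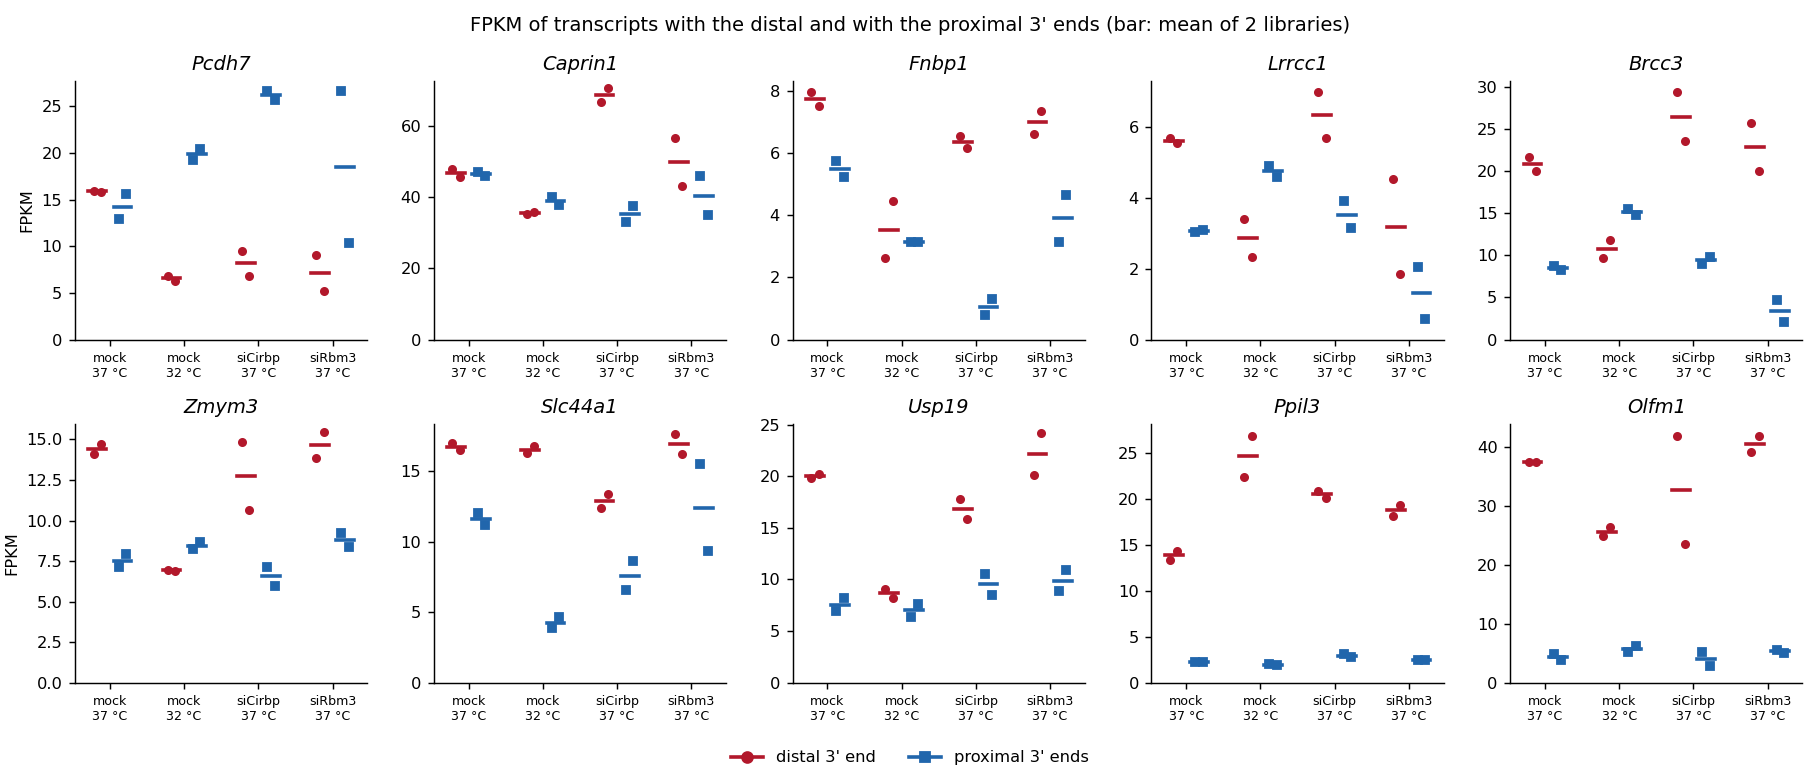
FPKM (y axes) of the distal transcripts (red circles) and the proximal ones (blue squares) of the 10 genes in the 4 groups, with points for single libraries and bars for the mean of 2. In Slc44a1 at 32 °C the distal level overlaps mock and the proximal level is lower, and in Fnbp1 in siCirbp the proximal level is 0.776 and 1.29 FPKM against 5.75 and 5.25 FPKM in mock.

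Caprin1 encodes a cytoplasmic RNA-binding protein that is found in stress granules with G3BP1. It lies on the minus strand at chr2:103603102-103637797, with its distal end at 103603102 and its proximal end at 103607264, 4162 nt apart. Caprin1 had a distal share of 50.4% and 49.8% in mock at 37 °C, 46.8% and 48.7% at 32 °C, 67.0% and 65.4% in siCirbp, with 55.3% and 55.1% under the siRbm3 label. No 2 groups overlapped. The means were 50.1% ± 0.390, 47.8% ± 1.32, 66.2% ± 1.09 and 55.2% ± 0.0998 (SD, n = 2), or −2.34, 16.1 and 5.11 points from mock.

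In siCirbp the distal transcripts of Caprin1 were higher, at 66.8 and 70.8 FPKM against 47.8 and 45.6 FPKM in mock, and the proximal ones lower, at 33.0 and 37.4 FPKM against 47.1 and 45.9 FPKM. Caprin1 has 2 starts that each lead to both ends. From the start at 103637235, which carries most of the FPKM, the distal share was 47.2% and 45.9% in mock and 64.0% and 62.4% in siCirbp. From the start at 103637797 it was 61.0% and 59.7% in mock and 80.8% and 74.9% in siCirbp. By this estimated split of reads between starts, the siCirbp libraries were above mock from either start. At 32 °C the 2 starts differed: 42.6% and 45.0% from the first and 59.8% and 70.4% from the other.

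Ppil3 encodes a cyclophilin-type peptidyl-prolyl isomerase that is found with the spliceosome. The gene spans chr1:58487837-58502330 on the minus strand, with its distal end at 58487837 and its proximal end at 58490631, 2794 nt apart. Ppil3 had a distal share of 85.7% and 86.4% in mock at 37 °C, 91.5% and 93.5% at 32 °C, 86.9% and 87.9% in siCirbp, with 88.0% and 88.8% under the siRbm3 label. All 6 other libraries were above both mock libraries, with the 32 °C pair the highest. The mean at 32 °C was 92.5% ± 1.43 against 86.1% ± 0.546 (SD, n = 2), a difference of 6.41 points.

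The distal transcript of Ppil3 stood at 13.3 and 14.3 FPKM in mock, 22.3 and 26.8 FPKM at 32 °C, 20.9 and 20.03 FPKM in siCirbp, with 18.1 and 19.3 FPKM under the siRbm3 label. The proximal transcript ran from 1.87 FPKM at 32 °C to 3.14 FPKM in siCirbp. Its ratio of means to mock was 0.884 at 32 °C, 1.32 in siCirbp and 1.09 under the siRbm3 label. For the distal transcript the ratios were 1.78, 1.48 and 1.35. At 32 °C the share thus differed mostly through the distal transcript, the reverse of Slc44a1. At 63.4 to 107 estimated fragments per library the proximal end of Ppil3 was thinly covered.

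Brcc3 encodes a deubiquitinating enzyme that cuts lysine-63-linked ubiquitin chains within the BRCA1-A and BRISC complexes. Its locus is chrX:72661967-72701040 on the plus strand, with ends at 72699340 and 72701040, 1700 nt apart. The distal share of Brcc3 was 71.5% and 70.9% in mock at 37 °C, 38.4% and 44.5% at 32 °C, 76.5% and 70.6% in siCirbp, with 84.6% and 90.4% under the siRbm3 label. It was lowest in cold, highest in the libraries labelled siRbm3, and overlapped mock in siCirbp. The means were 71.2% ± 0.394, 41.4% ± 4.25, 73.6% ± 4.15 and 87.5% ± 4.07 (SD, n = 2), or −29.7, 2.39 and 16.3 points from mock.

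At 32 °C the distal transcript of Brcc3 was at 9.66 and 11.9 FPKM, against 21.7 and 20.02 FPKM in mock, and the proximal ones at 15.5 and 14.8 FPKM, against 8.67 and 8.21 FPKM. In the libraries labelled siRbm3 the distal transcript overlapped mock at 25.7 and 19.97 FPKM, and the proximal ones were at 4.67 and 2.12 FPKM. The summed level of Brcc3 had means of 29.3 FPKM in mock and 25.9 FPKM at 32 °C. The proximal end of Brcc3 is shared by 2 transcripts whose lengths, 4307 and 4310 nt, are nearly equal, and their separate values swapped between libraries of a group. In mock library 1 the longer stood at 8.67 FPKM and the shorter near 0, and in mock library 2 they stood at 0.208 and 8.01 FPKM. The sum at the proximal end was stable where the separate transcripts were not, so only the sum is used.

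Usp19 encodes a ubiquitin-specific protease that is made in an endoplasmic-reticulum-anchored form and a cytosolic form. Its locus is chr9:108393007-108404668 on the plus strand, with ends at 108404030 and 108404668, only 638 nt apart. Usp19 had a distal share of 74.2% and 71.1% in mock at 37 °C, 58.6% and 51.8% at 32 °C, 62.7% and 65.1% in siCirbp, with 69.4% and 68.8% under the siRbm3 label. All 6 other libraries were below both mock libraries, by means of −17.4, −8.75 and −3.54 points. The distal transcripts stood at 19.8 and 20.2 FPKM in mock and at 9.06 and 8.25 FPKM at 32 °C, while the proximal one overlapped, at 6.90 and 8.23 FPKM and at 6.40 and 7.67 FPKM.

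The authors' tables mark the estimate of Usp19 as failed in library 1 at 32 °C and in library 2 labelled siRbm3. There the stated intervals of its transcripts begin at 0. Without library 1 at 32 °C the difference in cold was −20.8 points, from library 2 alone. Usp19 was the only one of the 10 genes with a failed estimate.

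Lrrcc1 encodes a centrosomal protein with leucine-rich repeats and coiled coils. Its locus is chr3:14533788-14572658 on the plus strand, with ends at 14568303 and 14572658, 4355 nt apart. The distal share of Lrrcc1 was 65.3% and 64.1% in mock at 37 °C, 41.1% and 33.7% at 32 °C, 64.1% and 64.4% in siCirbp, with 68.9% and 76.0% under the siRbm3 label. The cold libraries were the lowest, siCirbp overlapped mock, and the libraries labelled siRbm3 were the highest. The means were 64.7% ± 0.787, 37.4% ± 5.21, 64.3% ± 0.197 and 72.5% ± 5.01 (SD, n = 2), or −27.3, −0.426 and 7.78 points from mock.

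In cold, the distal transcript of Lrrcc1 was at 3.41 and 2.34 FPKM against 5.68 and 5.55 FPKM in mock, and the proximal ones were at 4.89 and 4.59 FPKM against 3.03 and 3.10 FPKM. In the libraries labelled siRbm3 both ends were below mock, at 4.53 and 1.84 FPKM (distal) and 2.04 and 0.582 FPKM (proximal). The proximal end of Lrrcc1 in library 2 labelled siRbm3 rested on about 81.9 estimated fragments. Lrrcc1 was the least abundant of the 10 genes in mock at 37 °C, at a summed mean of 8.68 FPKM.

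Zmym3 encodes a zinc-finger protein found with histone deacetylase and demethylase complexes. It lies on the minus strand at chrX:98599723-98615561, with its distal end at 98599723 and its main proximal end at 98610269, 10546 nt apart. Zmym3 had a distal share of 66.5% and 65.0% in mock at 37 °C, 45.9% and 44.3% at 32 °C, 67.4% and 64.2% in siCirbp, with 60.03% and 64.8% under the siRbm3 label. The cold libraries were the lowest, siCirbp overlapped mock, and the last pair lay just below it. The means at 37 °C and 32 °C were 65.7% ± 1.02 and 45.1% ± 1.08 (SD, n = 2), a difference of −20.6 points.

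In Zmym3, 2 starts lead to both ends, and their estimated shares did not move together. Another listed start leads to only 1 end, had FPKM near 0 in every library and is left out of the shares and of the span given above. From the start at 98615561 the distal share was 94.4% and 100% in mock at 37 °C and 76.8% and 70.4% at 32 °C. From the start at 98615253 it was 0.910% and 0.00544% in mock and 12.5% and 7.10% at 32 °C. The share was lower in cold from the first start and higher from the second. The FPKM from the first start was 14.9 and 14.7 in mock and 7.90 and 9.15 at 32 °C, and from the second 6.35 and 7.93 in mock and 7.31 and 6.40 at 32 °C. By these estimates, less RNA came in cold from the start that mostly reaches the distal end. The distal share from that start was also lower, and both go with the lower share of the whole gene. Reads of 76 nt do not link a start to a 3' end, so the split by start is a model's estimate. In mock library 2 at 37 °C it left 0.000432 FPKM distal from the second start and 0 FPKM proximal from the first. In siCirbp the pooled share overlapped mock. There the second start gave 39.2% and 27.8% and the first 76.1% and 86.4%, so opposite estimated differences cancelled in the pooled value. Under the siRbm3 label the second start gave 24.1% and 26.4% and the first 83.0% and 89.6%. The opposite estimated differences of the 2 starts were thus not particular to cold.

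**Figure D3:**
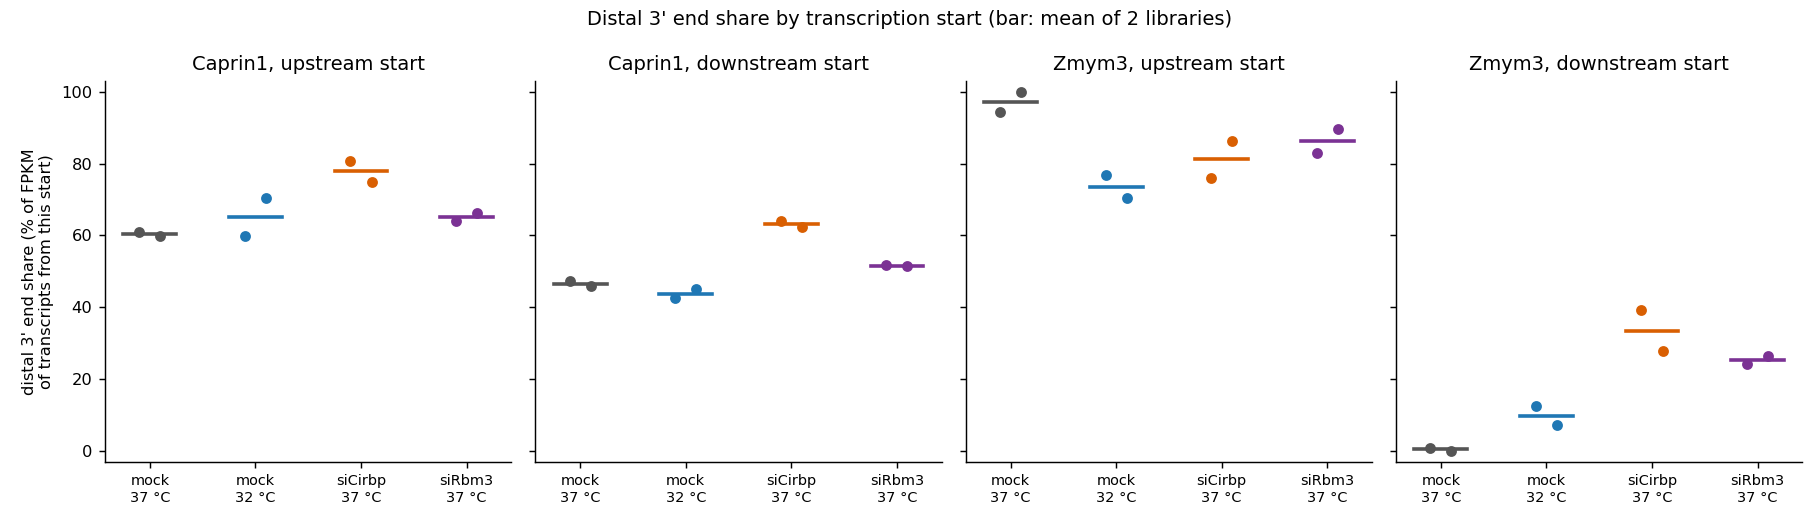
Distal 3' end share (percent of the FPKM from each start, y axis) of Caprin1 and Zmym3 in the 4 groups (x axis), with points for libraries and bars for the mean of 2. In Caprin1 both starts are higher in siCirbp than in mock, and in Zmym3 the share at 32 °C is lower than in mock from the upstream start (98615561) and higher from the downstream one (98615253). The same holds for Zmym3 in siCirbp and under the siRbm3 label. The split of reads between starts is a model's estimate.

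The most abundant distal and the most abundant proximal transcript of each gene were then compared in length. The distal transcript was the longer message in 6 of the 10 genes (60%), beside 137 of the 194 other genes that passed the filter (70.6%), where the 2 transcripts can come from different starts. In Lrrcc1, Brcc3, Ppil3 and Usp19 the transcript with the farther end was the shorter message, with distal minus proximal lengths of −2316, −3169, −392 and −5 nt. Among the 21 pairs of a distal and a proximal transcript with the same start in the 10 genes, the difference in genomic span (distal minus proximal) exceeded the difference in message length by at least 643 nt (Usp19). These pairs therefore differ in their exons, and none of the 21 is the same message extended at its last exon. This is not particular to the 10 genes. Such a pair was found in 0 of the 194 other genes that passed and in 0 of all 596 genes. The listed transcripts thus hold no such pair by this measure, so extension at the last exon alone could not be seen here. Across the 204 genes, Spearman's rho between the log2 length ratio of the 2 ends and the distal log2 difference was −0.0120 at 32 °C, 0.154 in siCirbp and −0.127 in the libraries labelled siRbm3. For siCirbp against those libraries rho was 0.281. These values describe genes that share the same libraries.

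To place the 10 genes among all 204, limma was fitted to the log2 ratio of distal to proximal FPKM, each with 1 FPKM added. Since that ratio chose the genes, their calls are counted beside the background and support nothing. At 32 °C, 24 of 204 genes (11.8%) were called at a Benjamini-Hochberg adjusted p below 0.05, 9 higher (4.41%) and 15 lower (7.35%). The 10 genes held 2 of those 9 (Slc44a1 and Ppil3) and 6 of those 15 (Brcc3, Pcdh7, Lrrcc1, Zmym3, Usp19 and Olfm1). In siCirbp 10 genes (4.90%) were called, 6 higher (2.94%) and 4 lower (1.96%), among them Fnbp1 and Caprin1 (higher) and Pcdh7 (lower). In the libraries labelled siRbm3, and between siCirbp and those libraries, limma called no gene (0.00%), with 13 and 34 genes at an unadjusted p below 0.05. Single libraries moved these counts widely: without library 2 at 32 °C, 2 genes were called in cold, and without siCirbp library 1, 0 were called in siCirbp.

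On this log2 scale the differences at 32 °C ran from −1.67 (SE 0.251) in Brcc3, −1.62 (SE 0.257) in Pcdh7 and −1.28 (SE 0.189) in Lrrcc1 to 0.90 (SE 0.201) in Ppil3 and 1.25 (SE 0.235) in Slc44a1. In siCirbp they ran from −1.74 in Pcdh7 to 0.94 in Caprin1 and 1.44 in Fnbp1. In the libraries labelled siRbm3 the widest were −1.32 in Pcdh7 and 1.28 in Brcc3, and neither was called. The spread between the 2 libraries of a group also differed: the median absolute difference in this log2 ratio was 0.165 in mock at 37 °C, 0.174 at 32 °C, 0.270 in siCirbp and 0.348 in the libraries labelled siRbm3.

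**Figure D4:**
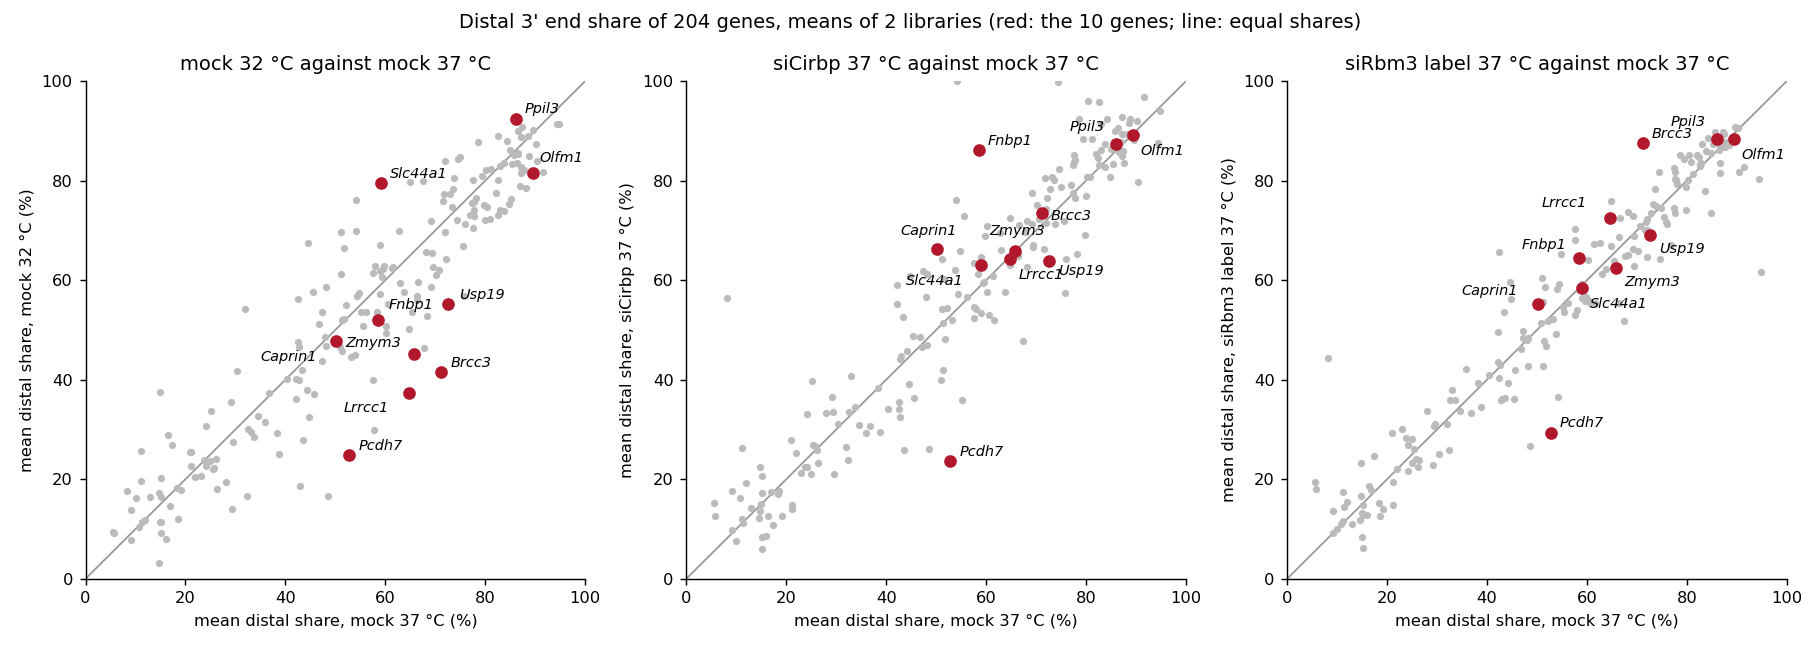
Mean distal share of 204 genes in mock 37 °C (x axis, percent) against mock 32 °C, siCirbp and the siRbm3 label (y axes, percent), each point a gene and a mean of 2 libraries, with the 10 genes in red and a line at equal shares. Pcdh7 lies far below the line in all 3 panels, at 24.8%, 23.6% and 29.3% against 52.8% in mock.

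Counting only whether the 2 libraries of a group lay on 1 side of both mock libraries, 9 of the 10 genes did so at 32 °C, 2 higher and 7 lower. The same held for 68.6% of the 204 genes, 25.5% higher and 43.1% lower. In siCirbp 6 of the 10 genes did so, 4 higher and 2 lower, beside 58.8% of all (35.3% higher and 23.5% lower). In the libraries labelled siRbm3 it was 8 of the 10, 5 higher and 3 lower, beside 37.3% of all (18.6% in either direction).

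Because library 1 labelled siRbm3 goes against its label in Rbm3, the shares were also read without it, from library 2 alone. Pcdh7 then stood −19.5 points from mock, Brcc3 19.2, Lrrcc1 11.3, Caprin1 5.04 and Fnbp1 2.78. Slc44a1 turned from −0.681 to 4.50 points, and the other 4 genes kept their sign. Among those, the value of Usp19 then rests wholly on an estimate that the authors' table marks as failed. Without that library limma called 4 of the 204 genes, Brcc3 among them, on the assumption that the lone library varies like the other groups.

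A shift between ends need not come with a change in the summed level of the gene. At 32 °C, 3573 of 10901 genes (32.8%) were called on their total FPKM by limma, 13.0% higher and 19.8% lower. With the values centred on their median the balance turned to 2110 higher and 1721 lower, and leaving out 1 library took the count to between 395 (without library 2 at 32 °C) and 5071. Of the 10 genes, Ppil3 was called higher (log2 difference 0.69, SE 0.141), and Fnbp1 (−0.65, SE 0.134) and Usp19 (−0.78, SE 0.154) were called lower. These 3 calls held in 8 of 12 alternatives each and were lost without any 1 of the 4 mock libraries, at either temperature. The other 7 lay between −0.49 (Zmym3) and −0.17 (Brcc3 and Lrrcc1) and were not called. In siCirbp 3.39% of genes (370) were called and none of the 10, in the libraries labelled siRbm3 0.00%, and between siCirbp and those libraries 0.0367% and none of the 10. The 370 calls in siCirbp became 4 when either library at 32 °C was left out. At an unadjusted p below 0.05 on the total stood 3 of the 10 genes in siCirbp, beside 24.2% of all genes, 2 under the siRbm3 label, beside 13.3%, and 3 between these groups, beside 15.2%.

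PAR-CLIP sites were then read at the ends of these genes. The lists held 1941 sites for Cirbp and 2118 for Rbm3, from 1 library each, so they have no replicate check. Of the 10 genes, 3 held a site of either protein anywhere in the locus (Pcdh7, Caprin1 and Slc44a1), beside 41 of 204 genes (20.1%). Fnbp1, Lrrcc1, Brcc3, Zmym3, Usp19, Ppil3 and Olfm1 held none in these lists.

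In Pcdh7, a Cirbp site at chr5:58523016-58523043 lay by its crosslinked base 454 nt before the distal end. Its score was 201, in a list with a median of 301. For Rbm3, 2 sites lay upstream of the proximal end instead, at chr5:58112380-58112437 (score 233) and chr5:58111112-58111138 (score 159), 8280 and 9582 nt before it. Pcdh7 was the only one of the 10 genes with sites of both proteins, and the Cirbp site was in the stretch that only the distal transcript can hold.

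In Caprin1, a Cirbp site at chr2:103606804-103606855 (score 318) lay 419 nt beyond the proximal end, between the ends. A second, at chr2:103608584-103608611 (score 282), lay 1345 nt before the proximal end. The first site is in the stretch that only transcripts with the distal end cross. In Slc44a1, the 1 Cirbp site, at chr4:53578458-53578483, had a score of 1, the lowest value in the list, and lay 15439 nt beyond the proximal end and 56875 nt before the distal one.

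Within 500 nt of the distal end, Cirbp sites were found in 6 of 204 genes (2.94%), 1 of them Pcdh7, and within 500 nt of a proximal end in 8 (3.92%), 1 of them Caprin1. Between the ends they were found in 17 genes (8.33%), which include Pcdh7, Caprin1 and Slc44a1. Rbm3 sites lay near the distal end in 2 genes (0.980%), near a proximal end in 3 (1.47%) and between the ends in 11 (5.39%), none of them among the 10. With single-library lists of about this size, a gene without a site may still be bound.

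**Figure D5:**
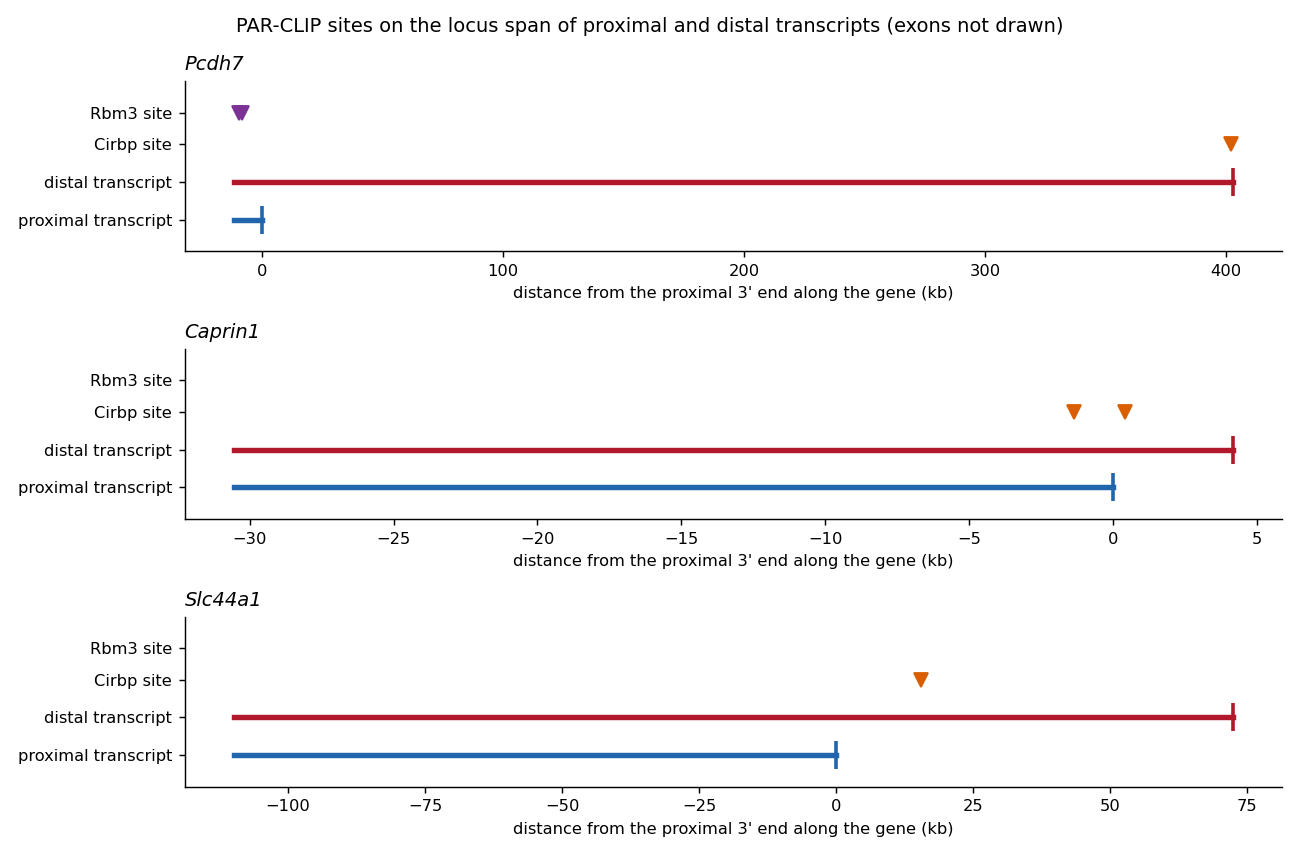
Position of PAR-CLIP sites (triangles; x axis, distance from the proximal end in kb) in the 3 genes of the 10 that hold any, with bars for the locus span of the proximal and distal transcripts and ticks at their ends. The Cirbp site of Pcdh7 lies 454 nt before its distal end, and that of Caprin1 lies 419 nt beyond its proximal end.

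The genes of the 3' end processing machinery were read from a list of 20, of which 19 were measured well enough to test on their total FPKM. At 32 °C limma called 3 of them lower and none higher, where 19.8% of all genes were called lower and 13.0% higher, so the count of 3 among 19 is near that background. Sympk, the symplekin scaffold, stood at 29.8 and 34.4 FPKM in mock at 37 °C and at 10.6 in both libraries at 32 °C (log2 difference −1.51, SE 0.181, limma adjusted p = 0.00272). Cpsf1, the largest CPSF subunit, stood at 18.9 and 21.6 FPKM and at 11.4 and 10.7 (−0.82, SE 0.176, limma adjusted p = 0.0136). Cpsf7, a CFI subunit, stood at 25.2 and 24.9 FPKM and at 18.3 and 17.9 (−0.45, SE 0.131, limma adjusted p = 0.0353).

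The call for Sympk held in 12 of 12 alternatives. Those for Cpsf1 and Cpsf7 were lost without any 1 of the 4 mock libraries, and that for Cpsf7 also with median centring. The median of the 19 was 0.19 at 32 °C, beside −0.02 over all genes. Pabpn1, the nuclear poly(A)-binding protein, came next at a log2 difference of −0.45 and did not pass (limma adjusted p = 0.0553). In siCirbp and in the libraries labelled siRbm3 limma called none of the 19. At an unadjusted p below 0.05 stood 4 and 1 of them, beside 24.2% and 13.3% of all genes. At 32 °C it was 7 of the 19, beside 45.6% of all genes. Whether the lower levels of Sympk, Cpsf1 and Cpsf7 bear on the ends of the 10 genes was not tested.

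Other genes followed the mean profiles of the 10 genes over libraries. By Pearson's r over the 8 libraries, the distal shares most like the mean of Slc44a1 and Ppil3 were those of B230120H23Rik (0.938), Prrx1 (0.935) and Tmem80 (0.931). The shares most like the mean of the other 8 genes were those of Wdr67 (0.977), Ankrd27 (0.955) and 5930434B04Rik (0.946). These are the highest of 194 values each, chosen for their likeness. The mean of the 8 hides opposite differences in siCirbp, such as −29.2 points in Pcdh7 and 27.6 in Fnbp1, so it does not describe each of them. Some genes outside the 10 had differences at 32 °C of the same size: Lepre1 (−31.9 points), Phka2 (−27.8), Arrdc4 (−24.2), Chpt1 (22.9) and B230120H23Rik (22.7). In Lepre1 and Phka2 the 2 mock libraries at 37 °C were far apart, at 35.7% and 61.5% and at 72.3% and 43.0%. In Arrdc4 (42.2% and 43.7%, against 19.6% and 17.8% at 32 °C) and B230120H23Rik (14.1% and 15.5%, against 36.6% and 38.4%) they were as close as in several of the 10 genes.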

How the data were processed

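RNA-seq of polyadenylated RNA (76-nt single reads, 8 libraries) and 2 PAR-CLIP libraries were used. Per the submitters' processing notes, TopHat 1.1.2 and mm9 were used; the version of the program that made the transcript tables, which have the Cufflinks layout, is not given in the sources used here. The deposited tables give, per the file headers, FPKM, coverage, length and an estimate status per transcript, and the deposited site lists give a score whose scale is not stated. Cufflinks-type FPKM divides reads among overlapping transcripts by a model, so ends of 1 gene are not counted independently.

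The 10 genes and all lists were chosen with earlier results of these data known. Starts within 100 nt counted as shared and 3' ends within 50 nt as 1 end. Strand came from a RefSeq table matched by symbol (9 of the 10 genes), and for Lrrcc1 from the tables' start labels. The log2 ratio of distal to proximal FPKM (pseudocount 1) was fitted over 204 genes, and log2 of total FPKM plus 1 over 10901 genes with a mean of at least 1 FPKM, with limma 3.58.1 in R 4.3.3 (4 group means, trend and robust, two-sided, Benjamini-Hochberg adjustment at 0.05). Fits were tested on simulated data. Shares are given as mean ± SD of 2 libraries. Estimated fragments are FPKM times length times mapped fragments. Near an end means within 500 nt on the gene's strand. Genes named besides the 10 are the 5 others with the largest absolute difference at 32 °C, the 3 most alike by Pearson's r for each direction, Cirbp, Rbm3, and the 4 processing genes with the smallest p at 32 °C. Alternatives are given in the closing section. No sequence is shown, since no mm9 genome was used here.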

Additional observations from a re-analysis of the deposited data

Results flagged for a closer look

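In 3 of the 10 genes the distal share moved one way in every library of 1 condition and the opposite way in every library of another, both set against the same mock libraries at 37 °C. None of these differences was itself tested, and how many of the 204 genes did the same was not counted. Per comparison, both libraries lay on 1 side of both mock libraries in 68.6% (32 °C), 58.8% (siCirbp) and 37.3% (siRbm3 label) of the 204. These shares hold for 1 comparison at a time and are not a background for opposite differences, so the 3 genes are a description only. In Caprin1 the difference from mock was −2.34 points at 32 °C and 16.1 points in siCirbp, a gap of −18.4 points, and with 5.11 points in the libraries labelled siRbm3 the gap to 32 °C was −7.45 points. In Lrrcc1 it was −27.3 points at 32 °C and 7.78 points in the libraries labelled siRbm3, a gap of −35.1 points. In Brcc3 it was −29.7 points at 32 °C and 16.3 points in the libraries labelled siRbm3, a gap of −46.1 points. The difference of Caprin1 at 32 °C was small and was not called by limma. From its start at 103637797 the 32 °C shares (59.8% and 70.4%) were not both below mock (61.0% and 59.7%).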

How the results depend on the processing

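Of 70 alternative values of the 10 genes' share differences per comparison, 68 (32 °C), 65 (siCirbp) and 69 (siRbm3 label) kept their sign, and no called value changed sign. Genes called on distal use (24, 10, 0 and 0 for 32 °C, siCirbp, siRbm3 label and siCirbp against siRbm3 label) became 6 (siCirbp) and 1 (siCirbp against siRbm3) at a pseudocount of 0.1, 2 (siRbm3) and 5 (siCirbp against siRbm3) at 5, 9 in the last comparison at a mean of 1 FPKM, 15, 5 and 2 at 20 FPKM, 1 (siCirbp) and 2 (siCirbp against siRbm3) with no filter, 47 (32 °C) and 7 (siCirbp against siRbm3) with only the 2 groups compared, 1 in the last with fragments, and 4 and 4 (siRbm3, siCirbp against siRbm3) with all transcripts whatever their start, an alternative chosen after seeing the data. Leaving out 1 library gave 2 to 42 at 32 °C, 0 to 18 in siCirbp, 0 to 4 in siRbm3 and 0 to 27 between the siRNA groups. At 32 °C the counts were 11 without either mock 37 °C library, 12 and 2 without 32 °C library 1 and 2, and 42 without siRbm3 library 2. In siCirbp they were 4 and 1 without mock 37 °C library 1 and 2, 3 without either 32 °C library, 0 and 4 without siCirbp library 1 and 2, and 18 and 17 without siRbm3 library 1 and 2. Between the siRNA groups, 27 were called without siRbm3 library 1. Of the calls named, Brcc3 held in 18 of 18 alternatives, Pcdh7 in 17 of 18 (32 °C) and 15 of 18 (siCirbp), Lrrcc1 in 16 of 17, Zmym3 in 17 of 18, Slc44a1 and Usp19 in 16, Ppil3 in 14, Olfm1 in 13, Fnbp1 in 14 of 17 and Caprin1 in 12 of 18. Genes called on total FPKM (3573, 370, 0 and 4) became 57 (siCirbp) and 7 (siCirbp against siRbm3) with no filter, and leaving out 1 library gave 395 to 5071, 4 to 1612, 0 to 951 and 4 to 2132, with the lowest 32 °C count without 32 °C library 2 and the highest siCirbp, siRbm3 and siRNA counts without siRbm3 library 1. Median centring split the 32 °C calls into 2110 higher and 1721 lower. With the replicate block the distal counts were 18, 7, 0 and 0 and the total count in siCirbp was 3. In the distal log2 ratio, deviations of same-numbered libraries correlated at −0.219 to 0.222 between groups. With 2 libraries per group this cannot exclude a shared batch, and it was not computed on total FPKM. Genes with a Cirbp site numbered 3 near the distal end with the upper-scoring sites, and 1 near a proximal end within 200 nt; those with an Rbm3 site near a proximal end numbered 7 within 1000 nt. The causes were not tested.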
